A study of Homo sapiens with 10 samples.

Results

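The semaphorin, plexin, neuropilin, Eph, ephrin, SLIT, ROBO, netrin and UNC5 genes were followed in ARPE-19 cells, a spontaneously immortalised human line derived from the retinal pigment epithelium (RPE), the cell sheet between the photoreceptors and the choroid. Members were matched by gene symbol, and 69 of the 22626 genes in the deposited table matched. They comprised 36 ligands and 33 receptors. RNA-seq was available for 10 libraries of cells kept for 48 h in 1 of 2 media. The control group (n = 5) had 5.5 mM glucose with 32 mM mannitol, a sugar alcohol added to equalise osmolarity, and the high-glucose (HG) group (n = 5) had 37.5 mM glucose. Glucose and mannitol therefore both differed between the groups, and their parts cannot be told apart. All libraries came from 1 cell line, and no label says that they came from separate cultures (the study describes its data in general, not these libraries in particular, as coming from independent experiments), so the p-values measure the spread between these libraries, which may be technical. The column names do not tie the HG libraries to single deposited samples, so they are called HG_1 to HG_5, and the controls carry their own numbers.

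Guidance cues steer growing axons and migrating cells, and most also act outside the nervous system. Semaphorins bind plexins, and the secreted class 3 semaphorins mostly do so through neuropilin co-receptors; ephrins bind Eph receptor tyrosine kinases on a neighbouring cell, and the ephrin-bearing cell can signal in return. SLITs bind ROBO receptors, and netrins bind DCC, neogenin and the UNC5 receptors. In epithelia these pairs influence cell contacts, cell shape and migration, and in the eye several of them, among them ephrin-B2, EphB4, neuropilins, SLITs and netrins, are known for roles in blood vessel growth.

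Library totals ranged from 33039260 to 45864176 counts in the control group and from 32448991 to 44400714 in the HG group. TXNIP, a glucose-induced gene, was at 0.809 to 1.23 CPM (the counts-per-million scale, adjusted between libraries) in the control libraries. In the HG libraries it was at 5.38 to 12.95 CPM. It was picked because earlier results of these data had shown it to follow the labels, so it is no independent check of them. Of 12 RPE markers, 9 passed the filter on low counts, RPE65 had 6 counts in 1 library and 0 in the other 9, and TTR was at 0 in every library, whereas RLBP1, MITF and OTX2 were measured in all libraries. The RPE marker list summed to 2832–3591 CPM in the controls and 1797–2469 CPM in HG, mostly KRT8 and KRT18, which fell (log2 fold changes -0.62 and -0.68, adjusted p = 0.00159 and 0.00142). PMEL also fell, and BEST1 ranged from 0.577 to 551 CPM within the controls. Among markers of other cell types, STMN2, NEFL, CDH5, CD3E, LUM, AQP4 and S100B were at 0 throughout. The neuron list summed to 123.5–160.4 CPM in the controls and 141–186 CPM in HG, nearly all of it TUBB3, a tubulin at 138 ± 13.3 and 152 ± 18.99 CPM (SD, n = 5 each) that was not called; SYP was at about 1 CPM and was not called either. CD68, which is not limited to blood cells, rose (log2 fold change 0.70, adjusted p = 0.00311) and carried the summed level of the blood markers from 54.5–81.1 CPM in the controls to 101.6–143.5 CPM in HG, with PTPRC at no more than 4 counts. COL1A1 fell (log2 fold change -1.33, adjusted p = 2.85e-05), and with it the sum of the 4 fibroblast markers, from 40.3–54.2 to 16.7–20.8 CPM, while DCN had 3 counts in 1 library. Their part in the results that follow was not tested. Libraries control 2 and HG_1 stood apart by a dependence of counts on the GC content of genes. Their slopes were 0.17 and 0.18 on the log2 scale per 10 percentage points of GC. The other controls had slopes of -0.040 to -0.0041 and the other HG libraries, mostly lower, of -0.091 to -0.027.

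Many of these genes had lower counts in HG than in the control medium. In bulk RNA, fewer cells that express a gene and less of its RNA per cell cannot be told apart. Of the 69 members, 55 passed the filter, and 19 of those (34.5%) were called at an adjusted p under 0.05 (edgeR quasi-likelihood test with Benjamini-Hochberg adjustment over all 14936 genes tested), against 15.4% of all genes tested. The direction was uneven: 18 members were lower in HG, where 7.8% of all genes tested were called lower, and 1 member, SEMA3F, was higher, where 7.62% of all genes were. A fold change above 1.5 was reached by 6 called members, against 3.69% of all genes tested. The 5 HG libraries did not overlap the 5 controls for 20 members (19 lower, 1 higher), against 13.6% of all genes. The median log2 fold change of the 55 members was -0.15, with 41 of them negative, whereas the median over all genes tested was 0.00, with 49.8% negative. An unadjusted p under 0.05 was found for 30 of the 55 members, against 28.5% of all genes tested.

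**Figure D1:**
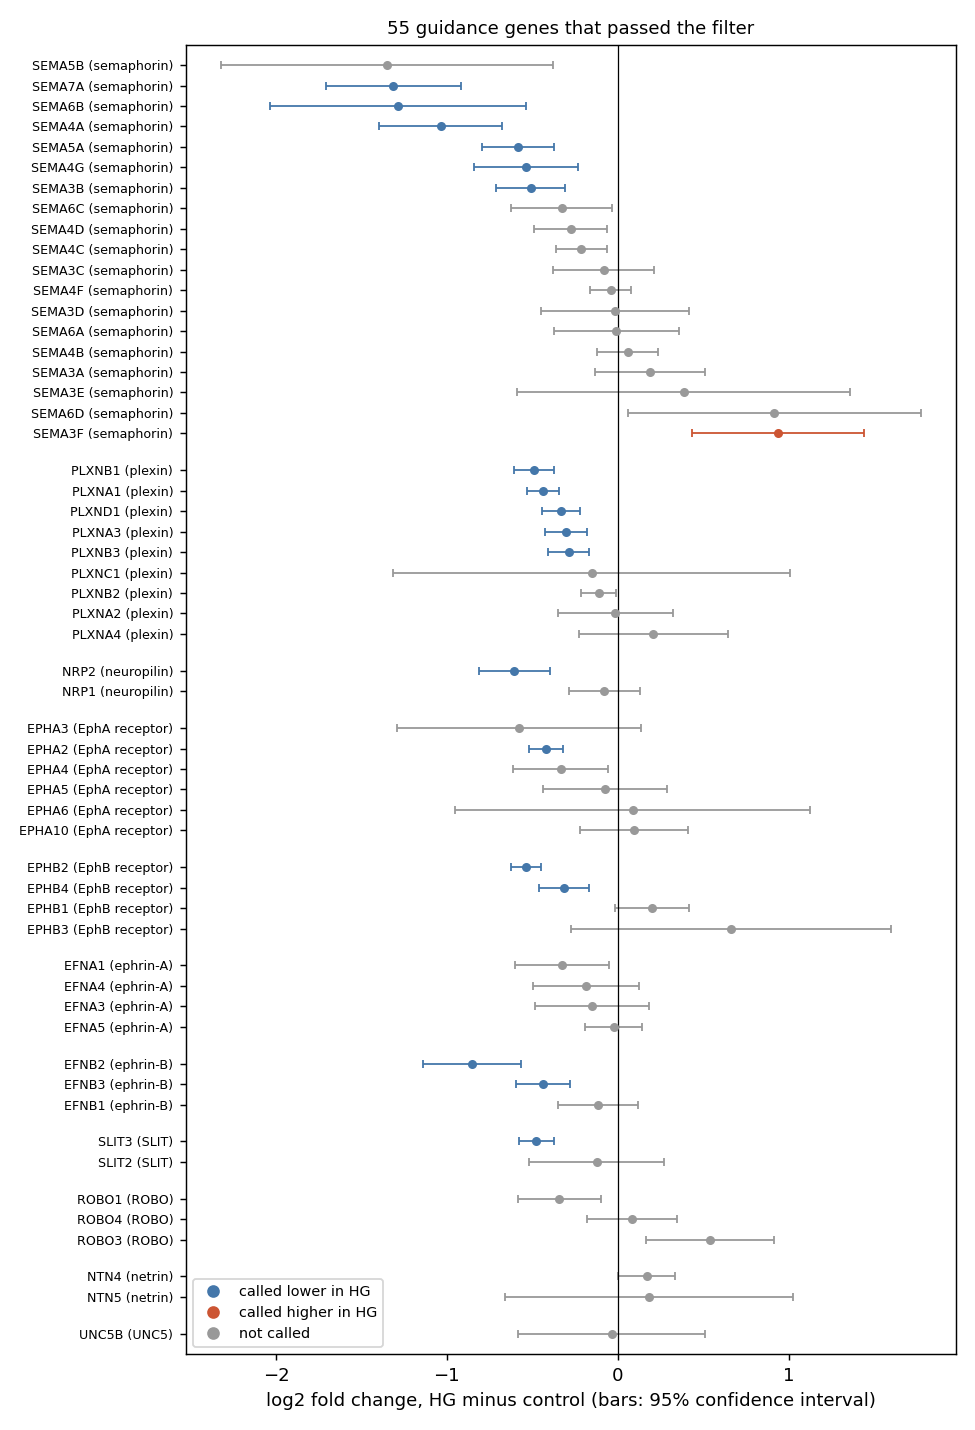
Log2 fold change (HG minus control, horizontal axis) with its 95% confidence interval for the 55 guidance genes that passed the filter, grouped by family on the vertical axis; blue marks genes called lower, red the gene called higher and grey those not called. The 18 blue points lie left of 0 in the semaphorin, plexin, neuropilin, EphA, EphB, ephrin-B and SLIT rows, and the red point is SEMA3F at 0.94.

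Calls were spread over ligands (10 of 30 tested, 9 lower and 1 higher) and receptors (9 of 25 tested, all lower). By family, 7 of 19 semaphorins, 5 of 9 plexins, 1 of 2 neuropilins, 1 of 6 EphA receptors, 2 of 4 EphB receptors, 2 of 3 ephrin-B ligands and 1 of 2 SLITs were called, and none of 4 ephrin-A ligands, 3 ROBO receptors, 2 netrins and 1 UNC5 receptor was. Among those 10 genes of the 4 families without a call, an unadjusted p under 0.05 was found for 1 ephrin-A ligand, 2 ROBO receptors and 1 netrin. At a mean of at least 10 FPKM (fragments scaled by transcript length and by library size, so that genes of different length can be compared) 7 of 11 members were called, all lower, against 20.9% of all genes of that level, of which 10.1% were called lower. Below 10 FPKM it was 12 of 44 members against 12% of all genes of that level.

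Summed FPKM depended most on the abundant members of each family, but a sum and its leading member did not always move alike. Semaphorin transcripts summed to 307.7–325 FPKM in the controls and 236–258 FPKM in HG, a fall carried by SEMA3B, which made up 60.4% to 74.4% of the sum. Plexins summed to 175–184 FPKM in the controls and 153–165 FPKM in HG, of which PLXNB2 made up 67.2% to 72.5%. PLXNB2 itself overlapped between the groups (118.5–126.5 FPKM in the controls, 108.8–119.4 FPKM in HG), so it did not carry the separation of the sums alone. The EphA sum was 33.2–39.1 FPKM against 26.6–28.4 FPKM, the EphB sum 32.8–36.2 against 22.9–27.5, the ephrin-B sum 19.6–25.6 against 12.6–14.99 and the SLIT sum 22.9–27.3 against 17.7–18.6. EPHA2 made up 78.5% to 86% of the EphA sum, EPHB2 46.2% to 58.8% of the EphB sum and EFNB2 43.3% to 64.3% of the ephrin-B sum. In all 6 of these families every HG library was below every control library. The neuropilin, ephrin-A, ROBO, netrin and UNC5 sums overlapped between the groups.

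**Figure D2:**
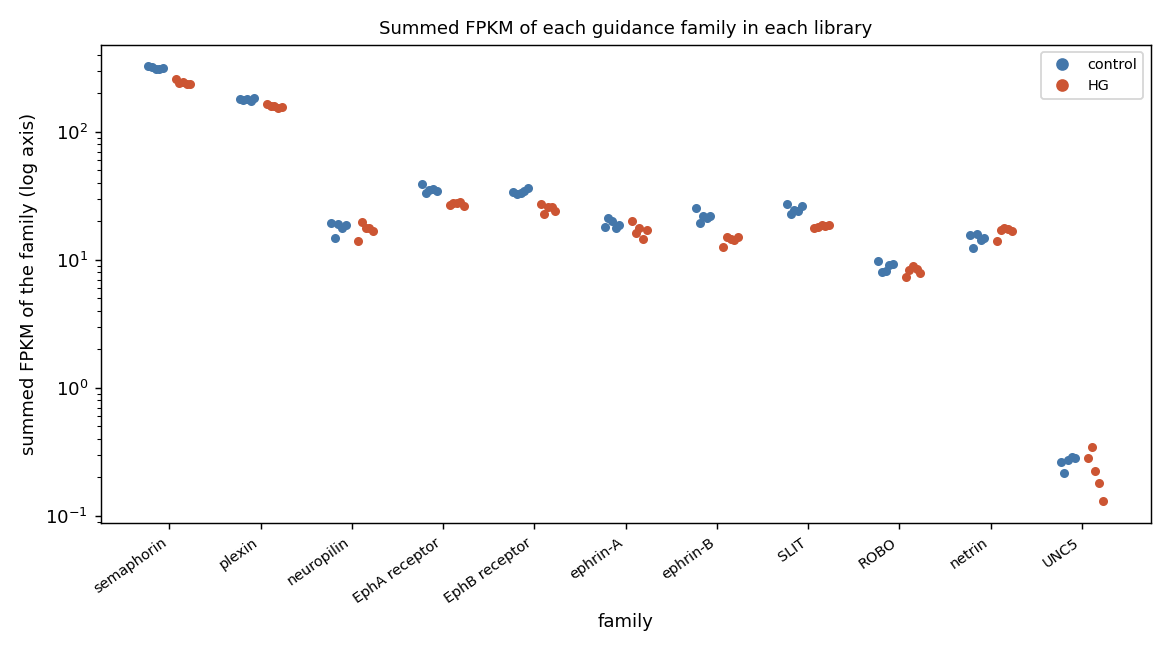
Summed FPKM of each guidance family (vertical log axis) in each of the 5 control (blue) and 5 HG (red) libraries, 1 point per library. The semaphorin, plexin, EphA, EphB, ephrin-B and SLIT sums do not overlap between the groups, with semaphorins at 307.7 to 325 FPKM in the controls and 236 to 258 FPKM in HG, and the other 5 families overlap.

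SEMA7A had the strongest fall of the called members. It is the glycosylphosphatidylinositol-anchored semaphorin, known to bind plexin C1 and beta-1 integrins. Its gene lies at chr15:74409289-74433958 on the minus strand (GRCh38, as for all positions). The control libraries 1 to 5 held 18.5, 22.3, 14.0, 13.3 and 21.9 CPM, and HG_1 to HG_5 held 7.71, 7.22, 5.46, 6.81 and 9.03 CPM. The lowest control was above the highest HG library, and the controls were the more scattered group. The mean went from 18.0 ± 4.27 (SD, n = 5) to 7.25 ± 1.30 CPM (SD, n = 5), a log2 fold change of -1.31 (SE 0.180, adjusted p = 0.000902, edgeR). The RefSeq promoter of SEMA7A (GRCh38.p14, chr15:74433909-74434208, minus strand, 250 bases before to 50 after the start site) is shown because this gene moved furthest; capitals mark GGGCGG, the core of a GC box, on either strand.
SEMA7A promoter: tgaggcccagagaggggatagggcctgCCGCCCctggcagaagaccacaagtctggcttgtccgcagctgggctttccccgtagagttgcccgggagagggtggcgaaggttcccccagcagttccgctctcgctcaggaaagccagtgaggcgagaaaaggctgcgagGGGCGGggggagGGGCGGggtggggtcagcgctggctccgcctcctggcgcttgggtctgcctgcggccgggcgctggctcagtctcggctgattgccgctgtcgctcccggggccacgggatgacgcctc

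PLXNC1, the plexin that binds SEMA7A, varied within both groups. Control libraries 1 and 2 held 1.40 and 0.830 CPM and controls 3 to 5 held 5.31, 4.45 and 5.71 CPM, and HG_1 to HG_3 held 4.08, 4.36 and 4.12 CPM with HG_4 and HG_5 at 2.01 and 1.34 CPM. Each group thus contained libraries with high and with low values. The log2 fold change was -0.15, with a 95% confidence interval from -1.31 to 1.01 that leaves a change of either sign possible (adjusted p = 0.894).

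Among the transmembrane semaphorins, SEMA4A, which binds plexins B1 and D1 and is needed by the RPE for photoreceptor survival in mice, fell by 1.04 on the log2 scale (SE 0.164, adjusted p = 0.00184). Its control values were 3.85, 4.73, 3.65, 3.51 and 3.19 CPM, and its HG values 2.36, 1.53, 1.69, 1.95 and 1.70 CPM. No HG library reached the lowest control. Its group means were 3.79 ± 0.581 and 1.85 ± 0.325 CPM (SD, n = 5 each), at 1.13 and 0.545 FPKM.

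SEMA6B, a ligand of class A plexins, was scarce, with 47 to 73 counts in the controls and 6 to 35 in HG. The controls held 1.46, 1.64, 1.13, 1.604 and 1.32 CPM and the HG libraries 0.909, 0.703, 0.624, 0.182 and 0.486 CPM. The groups did not overlap, and HG_4 was the lowest. The log2 fold change was -1.29 (SE 0.339, adjusted p = 0.0265), and the call was lost without control 1, control 4, control 5, HG_3 or HG_5, with adjusted p-values over all fits from 0.00244 to 0.0659.

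SEMA4G, a class 4 semaphorin, went from 5.52, 6.93, 5.03, 4.66 and 5.32 CPM in the controls to 4.13, 4.41, 3.70, 3.50 and 3.19 CPM in HG. The groups were close but did not overlap. The log2 fold change was -0.54 (SE 0.138, adjusted p = 0.0242), and the call was lost without control 1, HG_3, HG_4 or HG_5, with adjusted p-values over all fits up to 0.0589. Of its exon bases, 22.3% are shared with exons of MRPL43 on the opposite strand, which was at 46.8 CPM against 4.64 CPM for SEMA4G; the strand setting of the counting was not given in the sources used here, so reads of these genes may not have been told apart. MRPL43 itself was not called (log2 fold change 0.12, adjusted p = 0.602).

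SEMA5A, a transmembrane semaphorin with thrombospondin repeats that binds plexin B3 and class A plexins, fell by 0.58 on the log2 scale (SE 0.0958, adjusted p = 0.00231). The controls held 55.1, 42.2, 54.97, 56.7 and 54.9 CPM, and HG_1 to HG_5 held 29.3, 37.9, 34.8, 35.9 and 38.2 CPM. Control 2 and HG_1, the libraries set apart by GC, were the lowest of their groups, and the groups did not overlap. Its relative SEMA5B was at or below 48 counts per library and was not called (log2 fold change -1.35, 95% confidence interval -2.32 to -0.38, adjusted p = 0.0632). HG_2 held 0.703 CPM of SEMA5B against 0.152 to 0.260 CPM in the other 4 HG libraries, and without HG_2 the gene was called at a log2 fold change of -1.96 (adjusted p = 0.00522, range over all alternatives 0.00522 to 0.143).

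SEMA3B and SEMA3F, nearby genes on chromosome 3 that encode secreted class 3 semaphorins and are both known as tumour suppressor candidates, moved in opposite directions. SEMA3B (chr3:50267558-50277546, plus strand) was the most abundant member at 219 FPKM in the controls and 155 FPKM in HG. Its control libraries held 612, 700.2, 605, 603 and 609.9 CPM, and its HG libraries 557, 407, 426, 399 and 411 CPM. Control 2 and HG_1 were each far above the rest of their group, yet HG_1 remained below every control. The log2 fold change was -0.51 (SE 0.0919, adjusted p = 0.00392), and with control 2 and HG_1 both left out it was -0.56.

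SEMA3F (chr3:50155045-50189075, plus strand), whose main co-receptor is neuropilin 2, was the only member called higher. The controls held 1.24, 2.13, 2.14, 1.42 and 2.04 CPM, and HG_1 to HG_5 held 4.52, 3.88, 3.72, 2.77 and 2.34 CPM, from 41 to 95 counts and from 77 to 174 counts. The lowest HG library was just above the highest control. The mean went from 1.80 ± 0.429 to 3.45 ± 0.880 CPM (SD, n = 5 each), a log2 fold change of 0.94 (SE 0.228, adjusted p = 0.0187). GENCODE lists an antisense RNA, SEMA3F-AS1, across this gene, and reads of either strand may have been counted together. SEMA3B exceeded SEMA3F 325- to 511-fold by FPKM in the controls and 106- to 197-fold in HG. The SEMA3F promoter (RefSeq, GRCh38.p14, chr3:50154808-50155107, plus strand) is shown as that of the only member that rose, with GGGCGG in capitals.
SEMA3F promoter: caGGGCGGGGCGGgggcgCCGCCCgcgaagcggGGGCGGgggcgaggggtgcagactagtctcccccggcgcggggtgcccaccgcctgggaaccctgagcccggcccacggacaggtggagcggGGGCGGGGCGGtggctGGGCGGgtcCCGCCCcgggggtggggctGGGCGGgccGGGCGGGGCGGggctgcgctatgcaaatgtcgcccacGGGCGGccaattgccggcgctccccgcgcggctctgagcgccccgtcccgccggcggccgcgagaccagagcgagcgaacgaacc

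The other 12 tested semaphorins were not called: SEMA3A, SEMA3C, SEMA3D, SEMA3E, SEMA4B, SEMA4C, SEMA4D, SEMA4F, SEMA5B, SEMA6A, SEMA6C and SEMA6D. SEMA3C, a neuropilin ligand and second in the family by FPKM (54.4 in the controls, 51.8 in HG), had a log2 fold change of -0.08 with a 95% confidence interval from -0.38 to 0.21. SEMA4B, at 8.24 and 8.65 FPKM, had 0.06 (interval -0.12 to 0.24). SEMA4C, a plexin B2 ligand, was lower in every HG library (23.0 to 26.3 CPM) than in every control (26.8 to 31.6 CPM) but missed the threshold (log2 fold change -0.21, adjusted p = 0.0564). SEMA4D, the ligand of plexin B1, was at 20.1 ± 2.14 CPM in the controls and 16.6 ± 1.76 CPM in HG (SD, n = 5; adjusted p = 0.0828). SEMA6D had the highest positive estimate of those not called, 0.92 (interval 0.06 to 1.77, adjusted p = 0.147), at 15 to 114 counts.

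**Figure D3:**
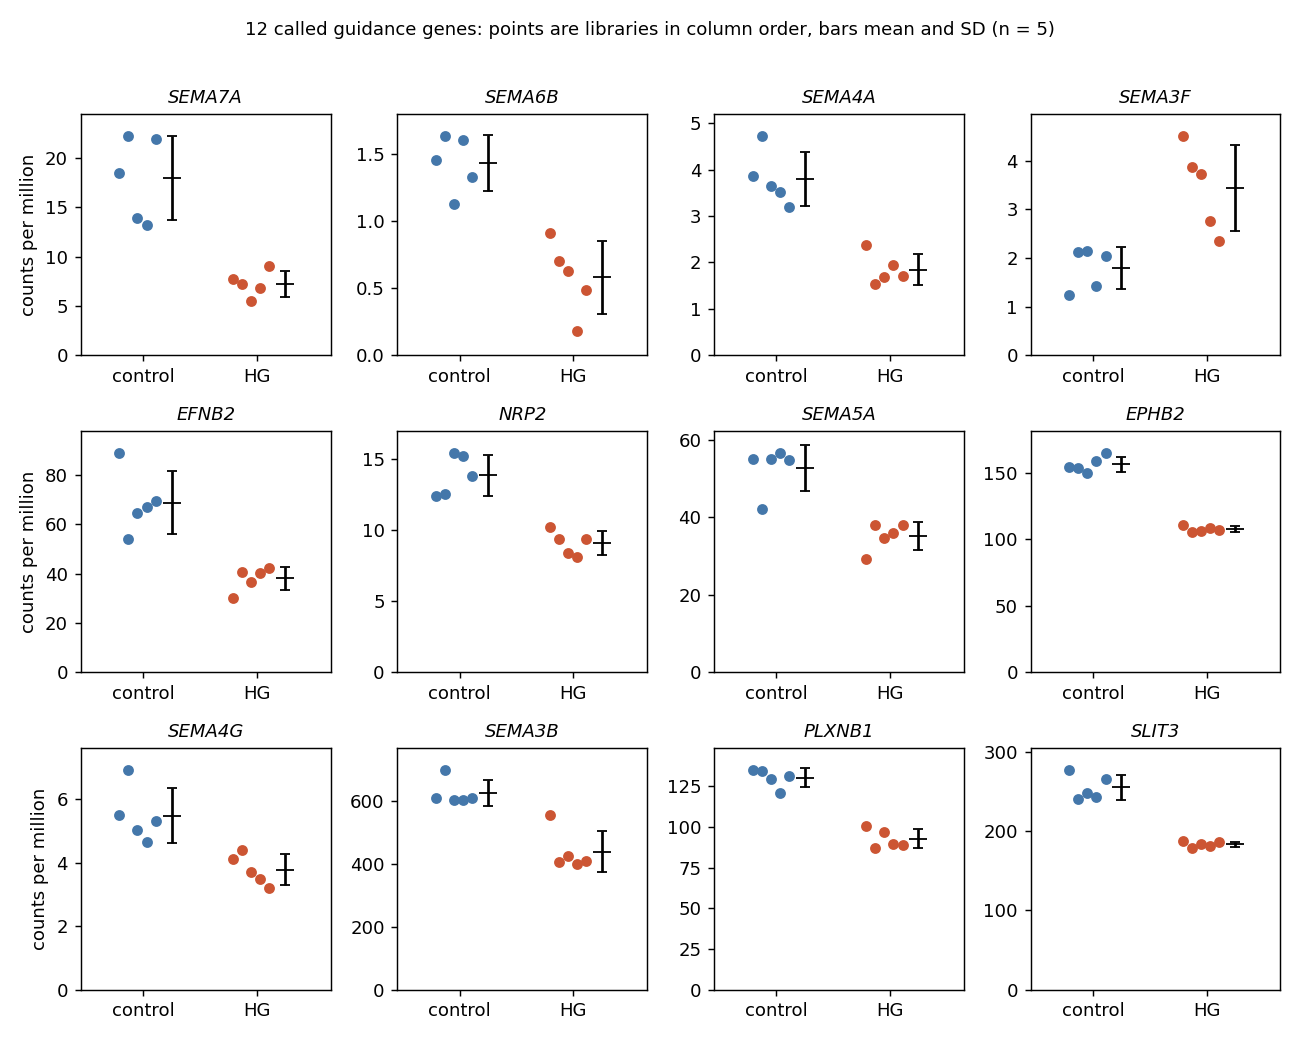
CPM (vertical axes, each from 0) of the 12 called guidance genes with the largest log2 fold changes in the 5 control (blue) and 5 HG (red) libraries; points are libraries, and bars give the mean and SD. In each panel the red points lie wholly below the blue ones, except SEMA3F, where they lie wholly above.

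Plexins, the semaphorin receptors that act on small GTPases inside the cell, were called lower for 5 of 9. PLXNB1, the SEMA4D receptor, held 135, 134, 129.7, 121 and 131 CPM in the controls and 100.5, 87.3, 97.04, 89.4 and 88.8 CPM in HG. The groups were well separated, with a log2 fold change of -0.49 (SE 0.0527, adjusted p = 0.000229). PLXNA1, a signalling partner of neuropilins, went from 91.1 ± 3.36 to 67.2 ± 2.06 CPM (log2 fold change -0.44, SE 0.0424, adjusted p = 0.000135). PLXND1, the SEMA3E receptor, went from 70.04 ± 2.51 to 55.5 ± 3.11 CPM (log2 fold change -0.33, adjusted p = 0.00147), PLXNA3, a SEMA3F receptor with neuropilin 2, from 60.5 ± 2.39 to 49.0 ± 3.28 CPM (-0.30, adjusted p = 0.00414), and PLXNB3, a SEMA5A receptor, from 103 ± 2.38 to 84.1 ± 6.47 CPM (-0.29, adjusted p = 0.00526; SD, n = 5 in all). PLXNB3 shares 20.4% of its exon bases with SRPK3, at 2.87 CPM, on its own strand, which was not called.

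PLXNB2, the most abundant plexin at 122 FPKM in the controls and 113 FPKM in HG, held 818, 850.2, 824, 804 and 857 CPM against 844, 754, 757, 727 and 763 CPM. HG_1 lay among the controls and the other 4 HG libraries below them. The gene was not called (log2 fold change -0.11, adjusted p = 0.138), but without HG_1 it was, at -0.14 (adjusted p = 0.0165, range over all alternatives 0.00783 to 0.453). PLXNA2 and PLXNA4, receptors of class 6 semaphorins, had log2 fold changes of -0.01 and 0.21 and were not called.

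NRP2, the co-receptor that SEMA3F and SEMA3C use and that also binds VEGF-C, fell by 0.61 on the log2 scale (SE 0.0946, adjusted p = 0.00174). Its control values were 12.4, 12.5, 15.4, 15.2 and 13.8 CPM, and its HG values 10.2, 9.38, 8.43, 8.15 and 9.40 CPM. The groups did not overlap. NRP1, the more abundant neuropilin (15.9 FPKM in the controls, 15.8 FPKM in HG, against 2.10 and 1.46 FPKM for NRP2) and the co-receptor of VEGF-A, was not called, with a log2 fold change of -0.08 and a 95% confidence interval from -0.29 to 0.13. The ratio of NRP1 to NRP2 by FPKM was 6.8 to 9.48 in the controls and 8.48 to 12.3 in HG, so the ranges overlapped.

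Of the ephrin-B ligands, transmembrane proteins that bind EphB receptors and EphA4, EFNB2 fell furthest. EFNB2 (chr13:106489731-106535662, minus strand), known for its part in vessel growth together with EphB4, held 89.0, 54.0, 64.6, 66.8 and 69.6 CPM in the controls and 30.3, 40.8, 36.6, 40.2 and 42.2 CPM in HG. Every HG library was below every control; control 2 and HG_1 were the lowest of their groups. The mean went from 68.8 ± 12.7 to 38.05 ± 4.78 CPM (SD, n = 5 each), and the count fell by 44.7% (log2 fold change -0.85, SE 0.130, adjusted p = 0.00151). EFNB3 went from 27.7 ± 1.73 to 20.5 ± 1.73 CPM (log2 fold change -0.44, adjusted p = 0.00232), and EFNB1, at 4.88 ± 0.432 and 4.503 ± 0.356 CPM, was not called (-0.12, interval -0.35 to 0.12). The EFNB2 promoter (RefSeq, GRCh38.p14, chr13:106535613-106535912, minus strand) is shown because EFNB2 was the ligand with the largest fall among those above 20 CPM, again with GGGCGG in capitals.
EFNB2 promoter: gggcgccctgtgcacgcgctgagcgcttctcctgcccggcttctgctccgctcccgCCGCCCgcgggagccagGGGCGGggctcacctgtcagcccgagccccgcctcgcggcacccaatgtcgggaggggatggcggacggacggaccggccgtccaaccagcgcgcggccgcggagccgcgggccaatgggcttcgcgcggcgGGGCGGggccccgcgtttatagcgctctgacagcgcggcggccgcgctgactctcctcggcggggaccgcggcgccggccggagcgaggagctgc

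Of the EphB receptors, which bind ephrin-B ligands, EPHB2 and EPHB4 were called lower. EPHB2 (chr1:22710839-22921500, plus strand) had the lowest adjusted p of all members. Its controls held 155, 154, 149.6, 159 and 165 CPM and its HG libraries 111, 105, 107, 109 and 107 CPM. Both groups were tight and far apart (156 ± 5.91 against 108 ± 2.26 CPM, SD, n = 5; log2 fold change -0.54, SE 0.0392, adjusted p = 2.85e-05). EPHB4, the venous receptor of ephrin-B2, went from 63.2 ± 2.46 to 50.8 ± 4.94 CPM (log2 fold change -0.31, adjusted p = 0.00973). EPHB1 was not called at 7.32 ± 0.495 and 8.41 ± 1.02 CPM (log2 fold change 0.20, interval -0.02 to 0.42), nor was EPHB3 (0.66, interval -0.27 to 1.60), which was under 1 CPM on average in both groups. By FPKM, EFNB2 was 0.745 to 1.16 times EPHB4 in the controls and 0.451 to 0.76 times in HG, and 0.537 to 0.906 times EPHB2 in the controls and 0.394 to 0.713 times in HG, so both ratios overlapped between the groups, the first only slightly.

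EPHA2, the leading EphA receptor of these cells and known in the lens and other epithelia, was the only EphA receptor called. It went from 125 ± 6.47 to 93.1 ± 2.75 CPM (SD, n = 5 each; log2 fold change -0.42, SE 0.0457, adjusted p = 0.000244), with controls at 117 to 135 CPM and HG libraries at 89.1 to 96.8 CPM. EPHA4, which binds both ephrin classes, was at 21.8 ± 3.01 and 17.3 ± 2.91 CPM and was not called (log2 fold change -0.33, adjusted p = 0.105), nor were EPHA3, EPHA5, EPHA6 and EPHA10, with log2 fold changes from -0.58 to 0.09.

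The ephrin-A ligands, anchored by glycosylphosphatidylinositol, gave no call among the 4 tested. EFNA1, the best known ligand of EphA2 and the first of its family by FPKM (8.59 in the controls, 6.89 in HG), gave -0.32 on the log2 scale (adjusted p = 0.112). EFNA4, EFNA3 and EFNA5 had -0.19, -0.15 and -0.02. The FPKM ratio of EFNA5 to EPHA2 was 0.111 to 0.152 in the controls and 0.158 to 0.187 in HG, without overlap. As EFNA5 was nearly flat, this ratio mostly restates the fall of EPHA2 (log2 fold change -0.42). No such ratio was taken for EFNA1, whose log2 fold change was nearer to that of EPHA2.

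The EFNA4-EFNA3 read-through gene, a separate row of the table that joins the first exon of EFNA4 to exons of EFNA3, did not pass the filter. It held 7, 0, 0, 0 and 0 counts in the controls and 52, 18, 34, 22 and 0 in HG. Counts were thus seen in 4 of 5 HG libraries and 1 of 5 controls, and HG_5 had none. The annotated transcript has 1042 bases, and 80% of its 100-base windows are also in an EFNA3 transcript and 9.54% in an EFNA4 transcript, so that 10.5% (99 windows across the join) belong to it alone. Its join lies between chr1:155063748-155063936 and chr1:155085091-155085404 (plus strand), and the 30 bases on each side are given because only reads across it separate this row from its neighbours; lower case is EFNA4 and capitals are EFNA3.
EFNA4-EFNA3 join: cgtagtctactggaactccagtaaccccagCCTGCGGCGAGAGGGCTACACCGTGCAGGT

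How the counts were shared among these 3 overlapping genes was not given in the sources used here. Without the filter, edgeR gave a log2 fold change of 3.94 (adjusted p = 0.0955) and DESeq2 3.98 (adjusted p = 0.0365). Leaving out control 1 or HG_5 brought the gene past the filter and the threshold, at log2 fold changes of 7.67 and 4.30 and adjusted p-values of 0.0361 and 0.0246; without control 1 the remaining controls are all at 0, so that 7.67 depends on the fit's prior count. Over all fits that gave a value the adjusted p ranged from 0.0246 to 0.11. EFNA3 and EFNA4 themselves were measured with 63 to 136 and 147 to 332 counts per library.

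SLIT3 (chr5:168661733-169301129, minus strand), a secreted ROBO ligand with known effects on vessels, supplied 95.6% to 97.6% of the SLIT sum. The controls held 278, 241, 249, 243 and 267 CPM and the HG libraries 187, 179, 184, 181 and 186 CPM. The HG libraries lay within a few CPM of each other and below every control (log2 fold change -0.48, SE 0.0468, adjusted p = 0.000142). SLIT2, at 6.49 ± 1.23 and 5.96 ± 1.24 CPM, was not called (-0.12, interval -0.52 to 0.27).

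Of the ROBO receptors, none passed the threshold, but 2 were near it in opposite directions. ROBO1, the most abundant, held 46.2, 31.0, 39.2, 40.05 and 43.8 CPM in the controls and 25.9, 33.6, 32.9, 31.2 and 34.2 CPM in HG. Control 2 lay inside the HG range, and the log2 fold change was -0.34 (adjusted p = 0.0598). ROBO3 was at 4.31 ± 0.827 and 6.28 ± 1.29 CPM (log2 fold change 0.54, adjusted p = 0.0539). Without control 2 both were called, ROBO1 at -0.42 (adjusted p = 0.011, range over all alternatives 0.00217 to 0.2) and ROBO3 at 0.65 (adjusted p = 0.022, range 0.00362 to 0.12). ROBO4, mainly known from endothelium, had a log2 fold change of 0.08.

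NTN4, a laminin-related netrin of basement membranes, was the leading netrin with 94.9% to 98.6% of the family sum. It held 60.2, 47.3, 60.5, 54.8 and 56.9 CPM in the controls and 55.3, 64.4, 65.6, 66.0 and 63.2 CPM in HG. Control 2 and HG_1 were the lowest of their groups, and without them the groups did not overlap. The log2 fold change was 0.17 (adjusted p = 0.173); with control 2 and HG_1 left out it was 0.16 (adjusted p = 0.0185, range over all alternatives 0.0185 to 0.308). NTN5 and UNC5B, both scarce, had 0.18 and -0.04 and were not called.

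The 14 members that did not pass the filter were, besides EFNA4-EFNA3, EFNA2, EPHA1, EPHA7, EPHA8, EPHB6, NTN1, NTN3, ROBO2, SEMA3G, SLIT1, UNC5A, UNC5C and UNC5D. The 13 besides EFNA4-EFNA3 had 0 to 20 counts per library, and 3 counts correspond to 0.0669 to 0.0912 CPM. NTN1, the classical netrin, thus had at most 4 counts, and 3 of the 4 UNC5 receptors were too scarce to test.

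**Figure D4:**
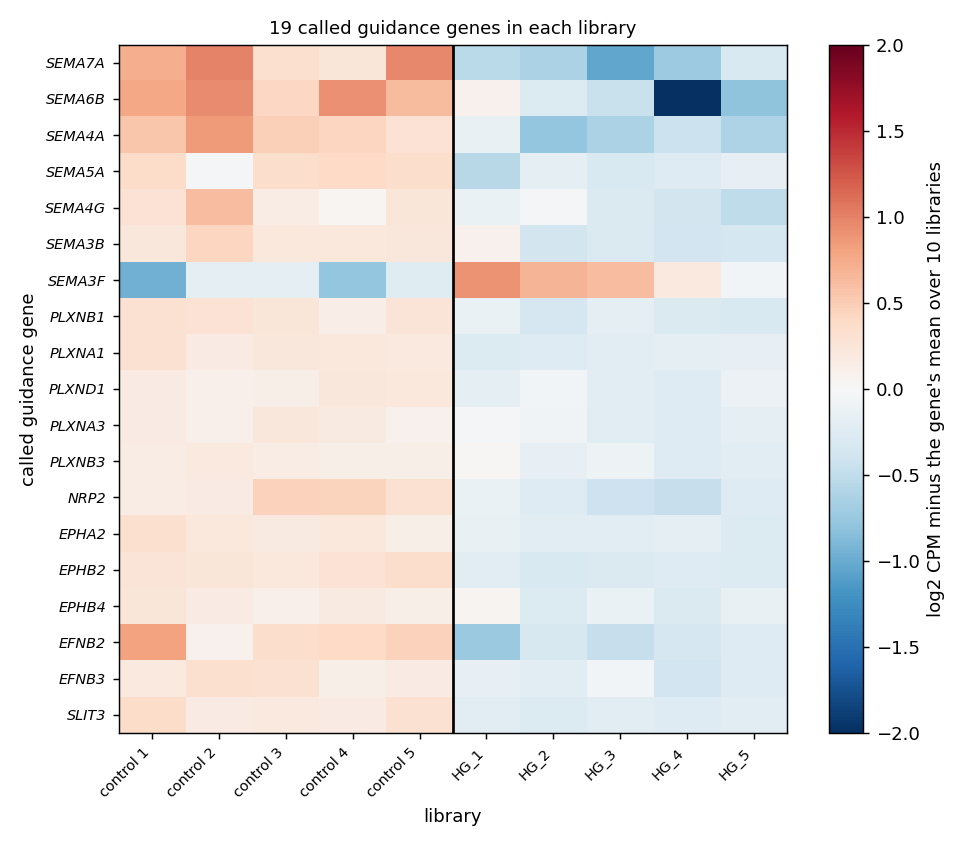
Log2 CPM of the 19 called guidance genes (vertical axis) in the 5 control and 5 HG libraries (horizontal axis), each as the difference from that gene's mean over the 10 libraries; red is above and blue below the mean. Each gene but SEMA3F is above or near its mean in the controls and below or near it in HG, and SEMA3F is the reverse.

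Other genes of these pathways, 62 in all and mostly co-receptors and effectors with a few ligands and a protease, were called in a share near that of all genes, but in 1 direction. Of 54 tested, 9 (16.7%) were called, against 15.4% of all genes tested, and all 9 were lower, against 7.8% of all genes called lower. Their median log2 fold change was -0.13, with 42 of 54 negative, beside -0.15 and 41 of 55 for the members. KDR, the VEGF receptor 2, was scarce and fell by 0.63 on the log2 scale (3.58 ± 0.756 to 2.32 ± 0.437 CPM, adjusted p = 0.0452), although its groups overlapped. GPC1, a heparan sulphate proteoglycan that binds SLITs, changed by -0.36 on that scale (adjusted p = 0.0147). SRC, a kinase downstream of ephrins, had -0.34 (adjusted p = 0.00943), CHN1, a Rac-inactivating protein of EphA4 signalling, -0.32 (adjusted p = 0.0165), and INPPL1, the SHIP2 phosphatase that binds EphA2, -0.32 (adjusted p = 0.00133). VAV2, ABL1, MICAL3 and DPYSL2, which link Eph receptors or plexins to the cytoskeleton, had -0.21, -0.21, -0.20 and -0.16 (adjusted p from 0.0111 to 0.0322). The netrin receptor DCC was among the 8 that did not pass the filter, and NEO1, the other DCC-family receptor, was not called (log2 fold change 0.07).

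Promoter letters were compared over 300 bases for the 17 called members with a RefSeq entry, EFNB3 and SEMA6B having none. GGGCGG, searched on both strands with overlapping matches counted, was present in 16 of 17, in 79.2% of the 48 tested members with an entry and in 45% of all 35116 promoters. It occurred 3 times in the SEMA7A promoter, 3 times in that of EFNB2 and 12 times in that of SEMA3F, so the gene that rose and those that fell both held it. CACGTG, the E-box, was in none of the 17, in 6.25% of tested members and in 7.26% of all promoters. TGANTCA, the AP-1 motif, was in none of the 17, in none of the 48 and in 7.71% of all promoters, and GGAATG, the TEAD motif, was in 4 of 17, in 10.4% of tested members and in 14% of all promoters. These are matches of letters within the window and show neither binding nor its absence. Each member gave a single promoter, the entry nearest its annotated start. The 35116 promoters were all entries, neither limited to expressed genes nor matched for GC content, so the shares come from unlike sets.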

How the data were processed

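RNA of 5 control and 5 HG libraries was sequenced, and the authors deposited read counts and FPKM per gene in separate tables. Per the labels and the submitters' processing notes, reads were trimmed with fastp 0.20.1 and aligned to GRCh38 with HISAT2 2.2.1; the counting program, the annotation and the strand setting were not given in the sources used here. FPKM values were deposited as the authors computed them and served for levels between genes and for 3 alternatives. Counts were tested with edgeR 4.0.16 in R 4.3.3 (filterByExpr, TMM, quasi-likelihood F test, Benjamini-Hochberg adjustment over 14936 genes, n = 5 per group), and CPM are TMM-scaled. SEs were |log2 fold change| divided by the square root of F. Positions came from GENCODE 29. Alternatives were other scalings and filters, DESeq2 1.42.0, edgeR's likelihood ratio test, limma 3.58.1 on log2(FPKM + 1) and log2(FPKM + 0.1), removal of a GC and length trend, and leaving out libraries. The fits were tested on simulated data. No 2 libraries of a group agreed within sampling noise (chi-square per gene at least 13.8). Every member was named; the 12 called members with the largest log2 fold changes and a mean of at least 1 CPM were given by library, and of those not called the 2 highest of each family and known partners were given values. One listed marker is not reported here. Members and lists were chosen with earlier results of these data known.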

Additional observations from a re-analysis of the deposited data

Results flagged for a closer look

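Within groups of 5, single libraries lay far from the rest in 11 of the 110 group-and-gene sets examined, where chance would give about 5.5. Of these, 7 were in control 2 or HG_1, the libraries set apart by GC. SEMA3B stood out in both, at 700.2 CPM in control 2 (603 to 612 CPM in the other controls) and 557 CPM in HG_1 (399 to 426 CPM in the other HG libraries). SEMA5A was at 42.2 CPM in control 2 against 54.9 to 56.7 CPM. In HG_1, SEMA3C was at 194 CPM against 278 to 297 CPM, NTN4 at 55.3 CPM against 63.2 to 66.0 CPM, SEMA4D at 13.6 CPM against 16.9 to 17.9 CPM, and EPHA5 at 9.98 CPM against 13.4 to 13.7 CPM. Elsewhere, EFNA3 was at 2.06 CPM in control 4 (others 2.76 to 3.05 CPM), SEMA6C at 6.42 CPM in control 4 (others 7.07 to 7.22 CPM), SEMA5B at 0.703 CPM in HG_2 (others 0.152 to 0.260 CPM) and SEMA6A at 1.82 CPM in HG_5 (others 2.43 to 2.52 CPM).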

How the results depend on the processing

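Across the alternatives, 15 to 26 members were called (19 as reported, 17 to 22 with each library left out), of which 15 to 23 were lower. The calls of 17 of the 19 members held in every fit that tested them; SEMA6B and SEMA4G lost theirs without the libraries named above, and SEMA4G also with limma on log2(FPKM + 0.1). At a mean FPKM of at least 1, SEMA3F, SEMA4A, SEMA4G and SEMA6B were not tested. The number called higher (1) was 2 with library size alone, 2 at 10 or more counts in every sample, 3 with DESeq2, 3 with the GC and length trend removed, 3 without control 2 and HG_1, 0 at a mean FPKM of at least 1, and 1 to 2 with each library left out. Called members with a fold change above 1.5 (6) numbered 2 with limma on log2(FPKM + 1) and 2 with its FPKM filter, where the added 1 shrinks the change of scarce genes. Their number was 8 with DESeq2 and 4 to 9 with each library left out. Partner genes called (9) numbered 16 with DESeq2, 19 with the GC and length trend removed and 17 without control 2 and HG_1, and 6 to 13 with each library left out; the cause was not tested. Over all genes tested, 27.6% were called with the trend removed and 27.1% without control 2 and HG_1. With the trend removed all 19 calls held, but some falls were smaller. PLXNA1, PLXNA3, PLXNB1 and PLXNB3 had log2 fold changes of -0.34, -0.22, -0.41 and -0.20, against -0.44, -0.30, -0.49 and -0.29 as reported. That of EFNB2 was -0.85 in both. No direction reversed past a threshold. Single libraries changed further calls: EFNA1, PLXNB2 and SEMA4C were called without HG_1, ROBO1, ROBO3 and SEMA4D without control 2, SEMA5B without HG_2, and EPHA4 without HG_4. No paired analysis was possible because nothing says that columns of the same number belong together, and the HG columns cannot be tied to the HG samples, which carry letters. The 14 members under the filter had too few counts for the test reported here.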
